A study of Mus musculus with 12 samples.

Results

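Insulin leaves the beta cell by exocytosis: secretory granules are carried to the plasma membrane, held there, primed and, when calcium rises, fused with it. The genes described here are 34 genes of that machinery and of the granules themselves, a list of SNARE proteins, their Sec1/Munc18 partners, synaptotagmins, priming factors, Rab proteins and their effectors, granins and other granule proteins. All 34 were found by symbol among the 55536 genes counted, and all 34 were among the 19800 genes that passed a filter on low counts. The list was set by function and holds no threshold on a measured value, but it was chosen with earlier results of these data known. The question put to the data was how these genes differed after cytokine exposure, in islets of each genotype, and between the genotypes.

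The libraries were total RNA of pancreatic islets, the hormone-secreting cell clusters of the pancreas, from mice aged 16 weeks on a mixed C57BL/6J strain background. There were 12 libraries, 3 in each of 4 groups. Islets labelled bKO (titled PTPN2 -/-, and read here as a knockout of the phosphatase gene Ptpn2 in beta cells) were either left untreated or exposed to cytokines (TNF alpha, IL-1beta and, in the labels' spelling, INF-gamma) over 24 h. Control islets (titled PTPN2 +/+, with the genotype label fl/fl, so carrying floxed alleles) were treated or left untreated in the same way. The cytokines are those of inflamed islets, and the Ptpn2 product is a tyrosine phosphatase that damps JAK and STAT signalling downstream of interferons. Which Cre driver was used is not given in the sources at hand. The 6 libraries of a genotype came from 3 mice, so a mouse must stand behind more than 1 library, without a label that tells which. The p-values below treat the libraries as independent and measure the spread between them.

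Exocytosis runs through a set of partners. On the plasma membrane, SNAP-25 and syntaxin form the target SNAREs, and on the granule a VAMP protein is the partner that zips up with them. Munc18 proteins hold syntaxin ready, Munc13 and RIM proteins prime the docked granule, complexins clamp and then help the SNARE bundle, synaptotagmins are a family whose best-known members sense calcium, and Rab3 and Rab27 with their effectors bring granules to the membrane. NSF and alpha-SNAP take the spent SNARE bundle apart again. Granins such as secretogranins and VGF, with amidating enzyme and the phosphatase-like IA-2 proteins, are what the dense-core granule is filled with or bounded by.

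The libraries held 47064061 to 107515565 counts, and the member with the fewest counts, Cplx1, had 82 to 233 in a library. The gene named in the genotype, Ptpn2, had 110.5, 84.2 and 107 CPM (counts scaled to a common library size) in treated and 36.7, 33.8 and 35.5 CPM in untreated islets labelled bKO. Control islets had 88.9, 90.4 and 78.3 CPM when treated and 30.3, 31.5 and 31.4 CPM when untreated. The RNA was therefore not lower in the islets labelled bKO, and the genotype is given throughout as labelled. Markers of beta cells were abundant in all libraries, with 9 genes summing to 90079 to 177640 CPM and none at 0. Within the treated bKO-labelled group, replicate 2 stood apart from the other 2 libraries. Its beta-cell marker sum was 90079 CPM, against 162470 and 147630 CPM in replicates 1 and 3. Its sum over 4 stellate-cell markers was 4488 CPM, against 1796 and 1682 CPM. Counts of called members, and the members' values that this library moved the most, are given with and without it below.

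Before any treatment the members spanned a wide range of levels. Divided by exon length, so that genes can be compared, the granins Scg2 and Scg3 were the most abundant members in untreated islets of both genotypes. Scg2 stood at 1233 CPM per kb in islets labelled bKO and 1231 CPM per kb in controls, above 99.9% of tested genes in the controls. Scg5, Ptprn and Syt13 followed with 311, 378 and 272 CPM per kb in untreated islets labelled bKO, against 327, 290 and 274 CPM per kb in untreated controls. At the low end lay the priming factor Unc13b (2.28 CPM per kb in islets labelled bKO and 2.39 CPM per kb in controls) and the complexin Cplx1 (0.974 and 0.774 CPM per kb). In islets labelled bKO 17 of the 34 members were above the level of 90% of tested genes when treated and 23 when untreated. In controls 19 were when treated and 22 when untreated.

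**Figure D1:**
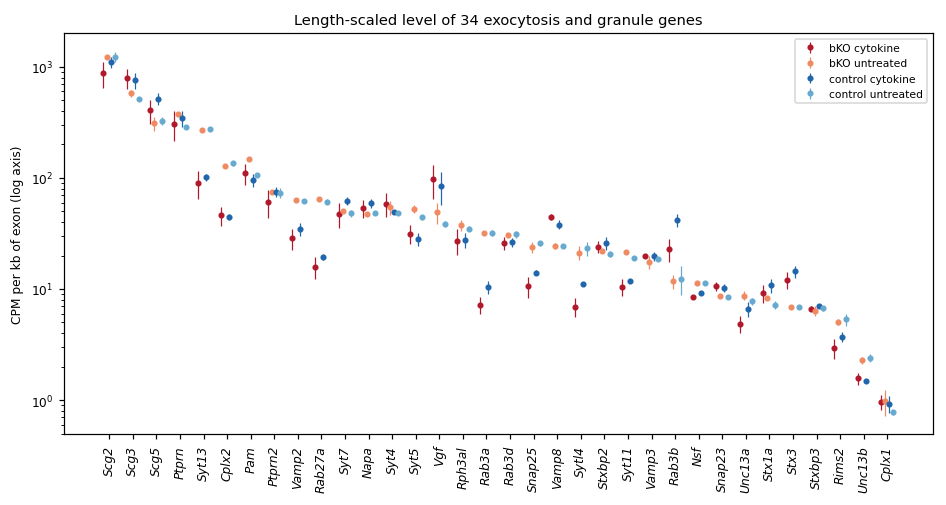
Mean level of each of the 34 members in CPM per kb of exon (log axis), with SD over 3 libraries, in the 4 groups. Genes are ordered by their level in untreated control islets, and the granins Scg2 and Scg3 stand highest in every group, while Cplx1 stands lowest.

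With cytokines, 22 of the 34 members changed in each genotype by edgeR's quasi-likelihood test with Benjamini-Hochberg adjustment at 0.05. In islets labelled bKO 6 rose, 16 fell and 12 were not called, so that 64.7% of members were called, against 62.4% of all genes tested. The median log2 fold change was -0.31 over the members and -0.06 over all genes tested. In control islets 10 rose, 12 fell and 12 were not called, again 64.7% of members, against 60.6% of all genes tested. The median there was -0.06 over the members (-0.13 to 0.00 with single libraries left out) and -0.10 over all genes. The share of members called was close to that of the whole table in both genotypes. By direction, 28.8% of all genes rose and 33.6% fell in islets labelled bKO, and 26.8% rose and 33.9% fell in controls. Treated and untreated libraries did not overlap for 23 members in islets labelled bKO (6 higher and 17 lower), against 65% of all genes (29.8% higher and 35.3% lower). In controls they did not overlap for 25 members (11 higher and 14 lower), against 70.5% of all genes (30.5% higher and 40% lower).

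The same 18 members carried a call in the same direction in both genotypes. Of these, 6 rose (Rab3b, Scg3, Snap23, Stx3, Vamp8 and Vgf) and 12 fell (Cplx2, Nsf, Rab27a, Rab3a, Rims2, Snap25, Syt11, Syt13, Syt5, Sytl4, Unc13b and Vamp2). Another 4 fell with a call only in islets labelled bKO (Pam, Rph3al, Scg2 and Unc13a), and 4 rose with a call only in controls (Napa, Scg5, Stx1a and Stxbp2). The difference in response itself was tested for each gene and was called for none of these. No member was called in opposite directions, and 8 were called in neither genotype (Cplx1, Ptprn, Ptprn2, Rab3d, Stxbp3, Syt4, Syt7 and Vamp3). Of all genes tested, 62.4% were called in islets labelled bKO and 60.6% in controls. The share of all genes called alike, or in opposite directions, in both genotypes was not counted, so this agreement is not particular to the members as far as is known.

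Markers of islet cell types moved with the treatment. Of 9 beta-cell markers 6 fell in each genotype and none rose, although their sum, carried by the most abundant of them, was 90079 to 162470 CPM in treated and 124420 to 135770 CPM in untreated islets labelled bKO. In controls that sum was 144610 to 177640 CPM when treated and 124960 to 136770 CPM when untreated. All 5 alpha-cell markers fell in each genotype, their sum being 6280 to 7624 CPM in treated and 15497 to 18987 CPM in untreated islets labelled bKO, and 8406 to 11111 CPM in treated and 17791 to 22837 CPM in untreated controls. All 6 endothelial markers fell in each genotype, with sums of 124 to 161 CPM in treated and 532 to 537 CPM in untreated islets labelled bKO, and of 97.2 to 145 CPM in treated and 481 to 595 CPM in untreated controls. All 6 macrophage markers rose in each genotype, with sums of 406 to 526 CPM in treated and 134 to 183 CPM in untreated islets labelled bKO, and of 391 to 471 CPM in treated and 137 to 157 CPM in untreated controls. Of the other secretory cells, 3 of 5 tested acinar markers fell in islets labelled bKO and 5 of 5 in controls, with sums over 6 listed genes of 248 to 998 CPM in treated and 1018 to 1670 CPM in untreated islets labelled bKO, and of 331 to 597 CPM in treated and 2138 to 3531 CPM in untreated controls. Delta-cell markers fell for 2 of 3 genes in islets labelled bKO and 3 of 3 in controls, and PP-cell markers for 2 of 2 in islets labelled bKO and 1 of 2 in controls. Of 4 stellate markers, 2 rose in islets labelled bKO and 1 in controls, and of 4 ductal markers 1 rose in each genotype and, in controls, 2 fell. Schwann and neuronal cells use many of the same exocytosis genes. Of 7 markers of these cells, 1 rose and 4 fell in islets labelled bKO, and 2 rose and 3 fell in controls. Their sum was 73.7 to 86.6 CPM in treated and 97.9 to 101 CPM in untreated islets labelled bKO. In controls it was 71.9 to 93.8 CPM when treated and 96.2 to 104 CPM when untreated. In whole islets, fewer cells of a type and less RNA per cell cannot be told apart, and the part of these markers in the results was not tested.

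**Figure D2:**
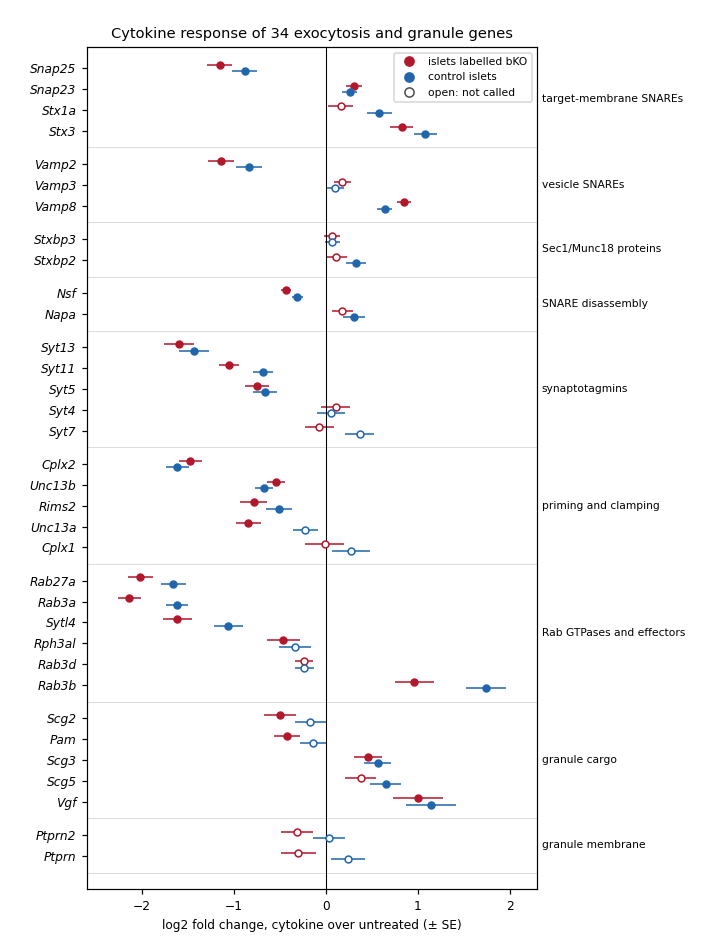
Log2 fold change with cytokines (treated over untreated) with its standard error for each member, grouped by role, in islets labelled bKO (red) and control islets (blue); open symbols are values not called at an adjusted p of 0.05. Rab3a and Rab27a lie lowest and Rab3b and Vgf highest, and the values of islets labelled bKO lie below those of controls for most members.

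Among the Rab proteins, which mark granules and recruit the proteins that tether them, Rab3a and Rab27a fell the furthest of all members in islets labelled bKO, and Rab27a did so in controls. Rab3a, the main Rab3 form of regulated secretion, had 18.5, 13.1 and 16.6 CPM in treated islets labelled bKO, against 71.7, 69.5 and 70.7 CPM in untreated ones (here and below, in the order of replicates 1 to 3). In controls it had 26.6, 21.8 and 21.2 CPM when treated, against 76.3, 70.0 and 67.7 CPM when untreated. Every treated library lay below every untreated one. The log2 fold change was -2.14 (SE 0.125, adjusted p = 8.01e-08), 4.4-fold lower, in islets labelled bKO and -1.62 (SE 0.122, adjusted p = 6.3e-07), 3.07-fold lower, in controls.

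Rab3b, a close relative of Rab3a, went the other way. It had 99.7, 61.7 and 79.7 CPM in treated and 41.8, 35.1 and 46.7 CPM in untreated islets labelled bKO. Controls had 168, 128 and 144 CPM when treated and 58.1, 36.3 and 36.9 CPM when untreated. The groups did not overlap within either genotype, and all 3 treated control libraries lay above all 3 treated libraries labelled bKO. The log2 fold change was 0.96 (SE 0.211, adjusted p = 0.00195) in islets labelled bKO and 1.74 (SE 0.214, adjusted p = 3.01e-05) in controls. Per kb of exon, Rab3b stood at 22.8 CPM and Rab3a at 7.21 CPM in treated islets labelled bKO, and at 41.5 and 10.4 CPM in treated controls. In untreated islets Rab3a was the higher, at 31.7 CPM per kb against 11.7 for Rab3b in islets labelled bKO, and at 32.04 against 12.4 in controls. The order of these 2 genes by level per length was thus turned round in treated islets of both genotypes. Rab3d, the remaining Rab3 gene among the members, had 119, 91.7 and 114 CPM in treated and 128, 126 and 129 CPM in untreated islets labelled bKO. Its fold changes of -0.24 in both genotypes missed the threshold (adjusted p = 0.0597 in islets labelled bKO and 0.0629 in controls). Rab3c, measured but not a member, was called lower in both genotypes.

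The start of the coding sequences of the 3 Rab3 members is shown because the reads have to tell these relatives apart. The lines give coding bases 1 to 120 of each gene from the GENCODE M21 transcripts, 5′ to 3′, and capitals mark the 44 positions at which the 3 are not all alike.
Rab3a: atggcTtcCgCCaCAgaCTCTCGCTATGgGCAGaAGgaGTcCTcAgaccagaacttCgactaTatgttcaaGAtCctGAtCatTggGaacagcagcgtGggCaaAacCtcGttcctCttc
Rab3b: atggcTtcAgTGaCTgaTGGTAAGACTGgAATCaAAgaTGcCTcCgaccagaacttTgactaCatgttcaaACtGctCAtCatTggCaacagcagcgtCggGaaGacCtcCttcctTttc
Rab3d: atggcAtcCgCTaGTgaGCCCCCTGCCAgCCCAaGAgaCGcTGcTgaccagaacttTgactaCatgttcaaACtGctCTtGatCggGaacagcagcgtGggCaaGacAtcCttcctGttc
Over the whole coding sequence, Rab3a and Rab3b matched at 76.1% of 660 aligned bases, Rab3a and Rab3d at 74.8%, and Rab3b and Rab3d at 77.5%. None of the 3 shared a stretch of 50 bases with any other annotated transcript. Rab3a lies at chr8:70754679-70758677 on the plus strand and Rab3b at chr4:108879063-108943324 on the plus strand (GRCm38). On the opposite strand, another annotated gene covers 9% of the exon bases of Rab3b, and no source at hand gives the strand used in counting.

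Rab27a, which ties granules to the actin cortex and the membrane through its effectors, had 72.2, 46.1 and 65.5 CPM in treated and 246, 248 and 251 CPM in untreated islets labelled bKO. Controls had 79.3, 70.3 and 75.5 CPM when treated and 249.9, 234 and 228 CPM when untreated. Treated and untreated values were far apart in both genotypes, with log2 fold changes of -2.02 (SE 0.134, adjusted p = 2.12e-07) in islets labelled bKO and -1.66 (SE 0.132, adjusted p = 9.65e-07) in controls. A pseudogene on the same strand covers 3.84% of the exon bases of Rab27a (chr9:73044854-73097629).

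Sytl4, which encodes the Rab27a effector granuphilin of insulin granules, fell in the same way. Its values were 40.3, 27.4 and 39.0 CPM in treated and 91.3, 118 and 118 CPM in untreated islets labelled bKO, and 55.2, 58.3 and 57.6 CPM in treated and 138, 104 and 116 CPM in untreated controls. Its log2 fold change was -1.62 (SE 0.156, adjusted p = 3.93e-06) in islets labelled bKO and -1.06 (SE 0.153, adjusted p = 0.000102) in controls. Rph3al, the effector noc2, had 125, 73.1 and 114 CPM in treated and 161, 139 and 130.02 CPM in untreated islets labelled bKO, with a log2 fold change of -0.46 (SE 0.175, adjusted p = 0.0367). In controls its value was -0.33 (adjusted p = 0.119). Without replicate 2 of the treated group the value in islets labelled bKO was -0.20 (adjusted p = 0.203). Taken over the 6 Rab and effector genes, 1 rose and 4 fell in islets labelled bKO, and 1 rose and 3 fell in controls.

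The target SNAREs divided by family member. Snap25, the SNARE of neurons and endocrine cells, had 87.0, 55.7 and 73.9 CPM in treated and 141, 166 and 175 CPM in untreated islets labelled bKO. Controls had 96.6, 98.8 and 89.5 CPM when treated and 186, 174 and 166 CPM when untreated. It fell in both genotypes without overlap, 2.23-fold in islets labelled bKO (SE 0.139 on the log2 scale, adjusted p = 2.26e-05) and 1.85-fold in controls (SE 0.138, adjusted p = 0.000185). Its widely expressed relative Snap23 rose, with 43.0, 50.7 and 42.9 CPM in treated and 36.1, 36.0 and 38.7 CPM in untreated islets labelled bKO, and 47.6, 40.7 and 42.8 CPM in treated and 37.1, 35.2 and 37.1 CPM in untreated controls. Its log2 fold changes were small, 0.30 (SE 0.0837, adjusted p = 0.00788) in islets labelled bKO and 0.26 (SE 0.0835, adjusted p = 0.0184) in controls. Scaled by library totals alone, both lost their call.

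Stx3, the syntaxin linked to apical and granule-to-granule fusion, rose in both genotypes. It had 76.0, 54.7 and 76.9 CPM in treated and 39.2, 38.9 and 39.3 CPM in untreated islets labelled bKO. Controls had 72.9, 93.3 and 81.5 CPM when treated and 40.1, 37.6 and 39.1 CPM when untreated. The groups did not overlap, and the log2 fold changes were 0.82 (SE 0.123, adjusted p = 0.000128) in islets labelled bKO and 1.08 (SE 0.124, adjusted p = 1.67e-05) in controls. Stx1a, the syntaxin of the classical beta-cell fusion site, had 27.1, 19.4 and 27.1 CPM in treated and 22.1, 22.4 and 21.2 CPM in untreated islets labelled bKO, where replicate 2 lay below the untreated libraries and the other 2 above them. In controls it had 25.2, 27.6 and 33.2 CPM when treated and 17.5, 20.4 and 19.5 CPM when untreated, with no overlap. The log2 fold change of 0.16 in islets labelled bKO missed the threshold (adjusted p = 0.321) and that of 0.58 in controls passed it (SE 0.135, adjusted p = 0.00295). Without replicate 2 of the treated group, the value in islets labelled bKO was 0.36 (adjusted p = 0.00964).

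The granule SNAREs divided likewise. Vamp2, the granule partner of Snap25 and Stx1a, had 125, 81.4 and 120.3 CPM in treated and 249.6, 234 and 236 CPM in untreated islets labelled bKO. Controls had 112, 141 and 141 CPM when treated and 233, 244 and 228 CPM when untreated. All treated libraries lay below all untreated ones, and the log2 fold changes were -1.14 (SE 0.143, adjusted p = 3.18e-05) in islets labelled bKO and -0.84 (SE 0.142, adjusted p = 0.000339) in controls. Vamp8, a VAMP of endosomes and of granules in many secretory cells, rose, with 109, 95.5 and 103 CPM in treated and 54.3, 55.5 and 60.7 CPM in untreated islets labelled bKO, and 87.8, 95.5 and 79.4 CPM in treated and 54.4, 58.2 and 56.2 CPM in untreated controls. Its log2 fold change was 0.85 (SE 0.0809, adjusted p = 3.64e-06) in islets labelled bKO, where replicate 2 lay close to the others, and 0.64 (SE 0.0806, adjusted p = 3.71e-05) in controls. Per kb of exon, Vamp8 stood at 44.3 CPM and Vamp2 at 28.6 CPM in treated islets labelled bKO, and at 37.9 and 34.5 CPM in treated controls. In untreated islets Vamp2 was the higher, at 63.0 CPM per kb against 24.6 for Vamp8 in islets labelled bKO, and at 61.7 against 24.3 in controls.

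Vamp3, cellubrevin, the closest relative of Vamp2 here, had 56.5, 58.8 and 55.7 CPM in treated and 43.1, 50.9 and 56.9 CPM in untreated islets labelled bKO, and its groups overlapped. Its fold changes of 0.18 in islets labelled bKO (adjusted p = 0.127) and 0.10 in controls (adjusted p = 0.386) missed the threshold. A stretch of both genes is shown to let a reader see how far these RNAs can be told apart there. It is the in-frame start of the longest gap-free block of their alignment, not picked by likeness, and overlaps the SNARE motif. Coding bases 79 to 198 of Vamp2 and 40 to 159 of Vamp3 differ at 28 positions, in capitals.
Vamp2: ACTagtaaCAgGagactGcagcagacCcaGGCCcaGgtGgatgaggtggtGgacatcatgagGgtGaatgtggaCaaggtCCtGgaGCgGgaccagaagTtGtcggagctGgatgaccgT
Vamp3: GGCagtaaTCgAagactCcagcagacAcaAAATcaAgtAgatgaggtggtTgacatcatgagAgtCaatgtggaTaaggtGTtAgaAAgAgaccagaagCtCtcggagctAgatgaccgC
Their aligned coding sequences matched at 74.3% of 311 bases, and those of Vamp2 and Vamp8 at 58.2%. Of the 50-base stretches of Vamp3, 3.91% also occur in other annotated transcripts, whereas Vamp2 and Vamp8 share none. Over all 34 members, 23 share none, 6 share more than 1%, and the highest share is 9.27%, in Stxbp3.

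**Figure D3:**
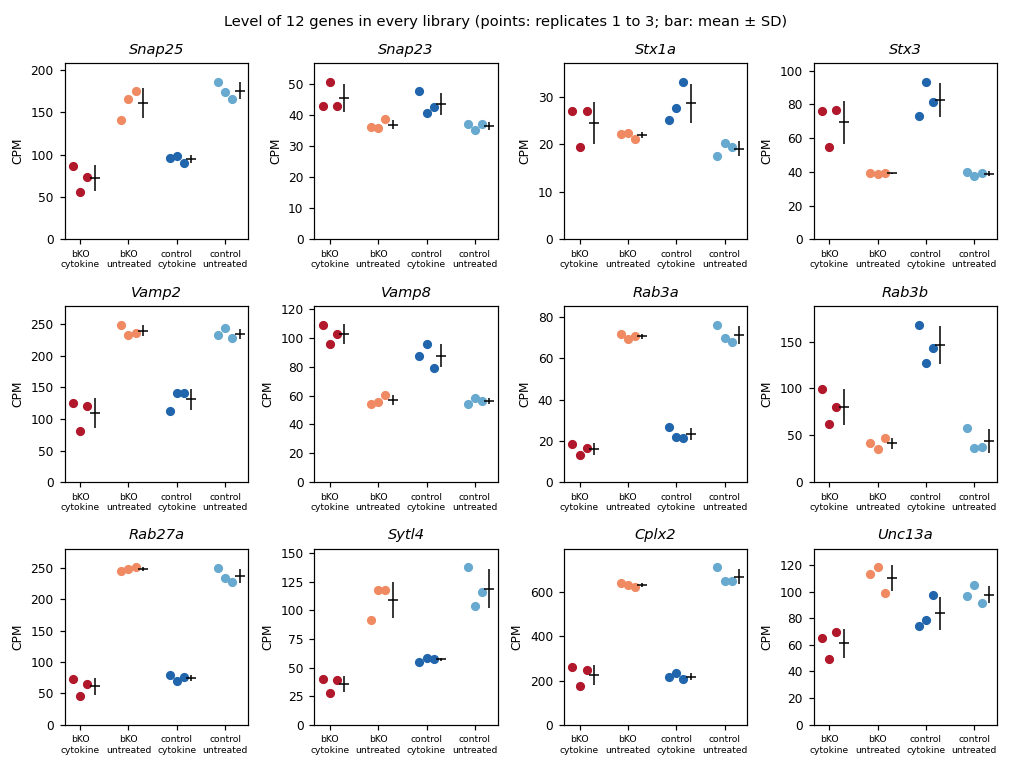
CPM in each of the 3 libraries per group, with the mean and SD, for 12 members, some of them in family pairs. The relatives Vamp3, Rab3d, Cplx1 and Unc13b are not shown. Snap25, Vamp2, Rab3a, Rab27a, Sytl4 and Cplx2 are lower in treated libraries of both genotypes, while Snap23, Stx3, Vamp8 and Rab3b are higher.

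The Munc18 proteins changed little. Stxbp2 had 108, 85.3 and 105 CPM in treated and 96.0, 90.9 and 89.2 CPM in untreated islets labelled bKO, which overlapped, and 91.1, 120.1 and 111 CPM in treated and 80.0, 91.1 and 86.1 CPM in untreated controls. Its log2 fold change was 0.11 (adjusted p = 0.39) in islets labelled bKO and 0.32 (SE 0.111, adjusted p = 0.0247) in controls. Stxbp3 had 35.5, 37.4 and 33.7 CPM in treated and 30.5, 33.9 and 37.5 CPM in untreated islets labelled bKO, and its fold change of 0.07 in both genotypes was not called.

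Of the 5 synaptotagmins, 3 fell and none rose in each genotype. The largest change was that of Syt13, which lacks the residues that bind calcium. It had 414, 232 and 370.0 CPM in treated and 1009.9, 1032 and 1032 CPM in untreated islets labelled bKO, and 364, 409 and 365 CPM in treated and 1064, 1014 and 1008 CPM in untreated controls. Treated levels were 3.03-fold lower in islets labelled bKO (log2 fold change -1.60, SE 0.165, adjusted p = 6.7e-06) and 2.71-fold lower in controls (-1.44, SE 0.164, adjusted p = 1.64e-05).

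Syt11, another member that does not bind calcium, had 62.0, 43.4 and 58.5 CPM in treated and 117, 115 and 108 CPM in untreated islets labelled bKO, and 59.6, 60.8 and 63.7 CPM in treated and 97.4, 102 and 97.6 CPM in untreated controls. Its log2 fold changes were -1.05 (SE 0.109, adjusted p = 6.85e-06) in islets labelled bKO and -0.69 (SE 0.108, adjusted p = 0.000188) in controls. Syt5, a calcium-binding synaptotagmin, had 88.0, 60.2 and 76.8 CPM in treated and 137, 116 and 125 CPM in untreated islets labelled bKO, a log2 fold change of -0.75 (SE 0.133, adjusted p = 0.000462). In controls its log2 fold change was -0.66 (SE 0.133, adjusted p = 0.00113). Syt7, a slow, high-affinity calcium sensor of insulin secretion, had 438, 255 and 375 CPM in treated and 389, 367 and 367 CPM in untreated islets labelled bKO, so that replicate 2 alone lay far below the untreated values. Its log2 fold changes were -0.07 (adjusted p = 0.701) in islets labelled bKO and 0.37 (adjusted p = 0.0584) in controls. Syt4 had 245, 165 and 274 CPM in treated and 178, 221 and 236 CPM in untreated islets labelled bKO, and its fold changes of 0.11 and, in controls, 0.06 were not called. Without replicate 2 of the treated group the Syt4 value in islets labelled bKO was 0.35 (adjusted p = 0.0131).

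Of the 5 priming genes and complexins, 4 fell in islets labelled bKO and 3 in controls, and none rose. Cplx2 was the more abundant complexin among the members. It had 259, 176 and 246 CPM in treated and 639, 632 and 624 CPM in untreated islets labelled bKO. Controls had 215, 233 and 205 CPM when treated and 711, 651 and 648 CPM when untreated. The separation was complete, with log2 fold changes of -1.48 (SE 0.124, adjusted p = 1.36e-06) in islets labelled bKO and -1.62 (SE 0.125, adjusted p = 7.6e-07) in controls. Its relative Cplx1 stood at 1.83 to 2.45 CPM in treated and 1.70 to 2.77 CPM in untreated islets labelled bKO and was called in neither genotype.

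Unc13a, the Munc13-1 that primes granules, had 65.4, 49.0 and 69.6 CPM in treated and 113, 118 and 99.0 CPM in untreated islets labelled bKO, without overlap. In controls it had 74.3, 78.9 and 97.4 CPM when treated and 96.9, 105 and 91.5 CPM when untreated, with overlap. The log2 fold changes were -0.84 (SE 0.137, adjusted p = 0.000235) in islets labelled bKO and -0.23 (SE 0.136, adjusted p = 0.166) in controls, and their difference of -0.62 (SE 0.192) was not called (adjusted p = 0.356, unadjusted p = 0.00799). Unc13b fell in both genotypes, by 0.54 on the log2 scale (SE 0.0969, adjusted p = 0.000467) in islets labelled bKO and by 0.68 (SE 0.0969, adjusted p = 9.51e-05) in controls. Rims2, the RIM2 scaffold that binds Rab3, had 35.1, 23.2 and 33.2 CPM in treated and 49.0, 53.1 and 55.6 CPM in untreated islets labelled bKO. It fell by 0.79 (SE 0.146, adjusted p = 0.000633) there and by 0.51 (SE 0.145, adjusted p = 0.00951) in controls.

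Of the 5 genes of granule cargo, 2 rose and 2 fell in islets labelled bKO, and 3 rose and none fell in controls. Vgf, a granin-like precursor of several peptides, had 363, 176 and 332 CPM in treated and 145, 115 and 176 CPM in untreated islets labelled bKO, and 184, 342 and 228 CPM in treated and 113, 121 and 107 CPM in untreated controls. The treated libraries were widely spread, and replicate 2 of the treated bKO-labelled group was at the level of the highest untreated library. The log2 fold changes were 1.00 (SE 0.273, adjusted p = 0.00745) in islets labelled bKO and 1.15 (SE 0.274, adjusted p = 0.00354) in controls. Scg3, which carries other granins into granules, had 2599, 1695 and 2235 CPM in treated and 1469, 1598 and 1679 CPM in untreated islets labelled bKO, and 2024, 2400.0 and 1758 CPM in treated and 1401, 1437 and 1345 CPM in untreated controls. It rose by 0.46 (SE 0.15, adjusted p = 0.0187) in islets labelled bKO and by 0.56 (SE 0.15, adjusted p = 0.00668) in controls.

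Scg5, the 7B2 chaperone of a prohormone convertase, had 781, 472 and 651 CPM in treated and 416, 493 and 556 CPM in untreated islets labelled bKO, which overlapped through replicate 2. Controls had 756, 916 and 747 CPM when treated and 560.0, 490.0 and 489 CPM when untreated. Its log2 fold change was 0.38 (adjusted p = 0.0693) in islets labelled bKO and 0.65 (SE 0.169, adjusted p = 0.00561) in controls, and without replicate 2 it was 0.61 (adjusted p = 0.00272) in islets labelled bKO. Scg2 had 2660.3, 1540.0 and 2369.6 CPM in treated and 3054, 3032 and 3213 CPM in untreated islets labelled bKO, a log2 fold change of -0.50 (SE 0.172, adjusted p = 0.0241). In controls it was -0.17 (adjusted p = 0.415), and without replicate 2 the value in islets labelled bKO was -0.24 (adjusted p = 0.111). Pam, the enzyme that amidates granule peptides, had 1497, 991 and 1429.8 CPM in treated and 1758, 1690.1 and 1816 CPM in untreated islets labelled bKO, a log2 fold change of -0.43 (SE 0.143, adjusted p = 0.0216). It was -0.20 (adjusted p = 0.136) without replicate 2, and -0.14 (adjusted p = 0.415) in controls.

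The granule membrane proteins Ptprn and Ptprn2 (IA-2 and phogrin) were not called. Ptprn had 1576, 856 and 1469 CPM in treated and 1606, 1574 and 1632 CPM in untreated islets labelled bKO, and 1200.1, 1659.9 and 1505 CPM in treated and 1240.0, 1270.3 and 1186 CPM in untreated controls. In islets labelled bKO only replicate 2 lay well below the untreated values, and the log2 fold change was -0.30 there (adjusted p = 0.183) and 0.24 in controls (adjusted p = 0.291). Ptprn2 gave -0.31 (adjusted p = 0.136) in islets labelled bKO and 0.03 (adjusted p = 0.897) in controls. Of the genes that take the SNARE bundle apart, Nsf, the ATPase, fell slightly, with 72.8, 68.2 and 69.8 CPM in treated and 96.8, 93.1 and 94.9 CPM in untreated islets labelled bKO. Its libraries lay close together, and the log2 fold changes were -0.43 (SE 0.0577, adjusted p = 5.04e-05) in islets labelled bKO and -0.31 (SE 0.0575, adjusted p = 0.000625) in controls. Napa, alpha-SNAP, gave 0.18 (adjusted p = 0.201) in islets labelled bKO and 0.30 (SE 0.116, adjusted p = 0.0397) in controls.

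One library bears on the count of members that fell in islets labelled bKO. In replicate 2 of the treated group, 30 of 34 members lay below the mean of the other 2 libraries, with a median of -0.52 on the log2 scale, against medians of -0.08 to 0.33 in the other 11 libraries. Without it, 11 members rose and 13 fell in islets labelled bKO, and the median log2 fold change was -0.06, against -0.04 over all genes. Of the 20286 genes tested in that fit, 6079 rose and 6555 fell, so that 62.3% were called. Napa, Scg5, Stx1a, Stxbp2 and Syt4 were then called higher, and Pam, Rph3al and Scg2 were no longer called. Stxbp2 stood at 0.27 (adjusted p = 0.0439) and Napa at 0.38 (adjusted p = 0.00352) in that fit, and Ptprn at -0.01, Ptprn2 at -0.04, Rab3d at -0.07 and Syt7 at 0.18 were not called. The large changes remained. Log2 fold changes were -1.95 for Rab3a, -1.79 for Rab27a, -1.33 for Syt13, -0.94 for Snap25 and -0.91 for Vamp2. Those of Rab3b and Vgf were 1.18 and 1.32.

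A few calls with small changes also depended on other single libraries. In islets labelled bKO, the fall of Rph3al missed the threshold without untreated replicate 1 or 2 (adjusted p = 0.123 and 0.0633), and the falls of Pam and Scg2 did so without untreated replicate 3 (adjusted p = 0.059 and 0.0624). The rise of Scg3 missed it without treated replicate 1 or 3 or untreated replicate 1 (adjusted p = 0.0847, 0.0505 and 0.0685). Ptprn2 and Rab3d passed as lower without treated replicate 1 (adjusted p = 0.0264 and 0.0307), and Vamp3 passed as higher without untreated replicate 3 (adjusted p = 0.0307). In controls, the rise of Snap23 missed it without treated replicate 1 or untreated replicate 2 (adjusted p = 0.0816 and 0.0693). The rise of Stxbp2 missed it without treated replicate 2 or 3 or untreated replicate 1 or 3 (adjusted p of 0.0603 to 0.11), and that of Napa without any library but treated replicate 1 (adjusted p of 0.0546 to 0.153).

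**Figure D4:**
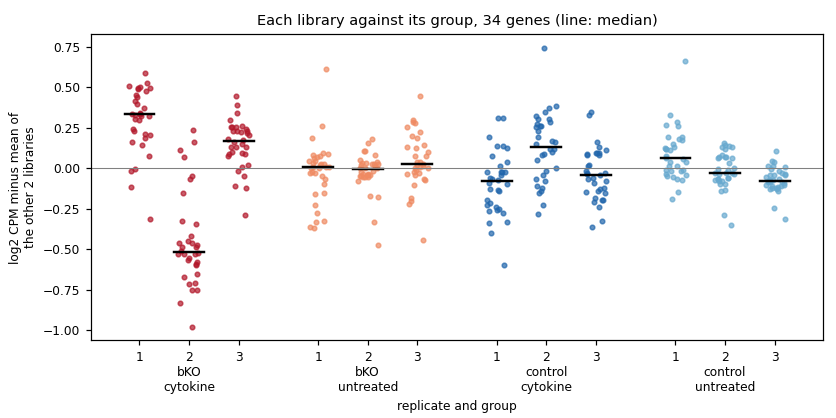
Each library's log2 CPM minus the mean of the other 2 libraries of its group, for the 34 members (points), with the median as a line. Replicate 2 of the treated bKO-labelled group has a median of -0.52 and 30 of 34 members below the others, and no other library has a median below -0.08.

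Scaling also moved the balance of directions. Where counts were scaled by library totals alone, the median log2 fold change of all genes moved to -0.29 in islets labelled bKO and -0.33 in controls. Members then split into 4 higher and 19 lower in islets labelled bKO, and 7 higher and 17 lower in controls. Of all 19800 genes tested, 4000 were higher and 8693 lower in islets labelled bKO, and 3737 and 8998 in controls. With DESeq2's size factors the members split into 8 higher and 13 lower, and 11 higher and 12 lower. All genes then split into 6293 higher and 6023 lower in islets labelled bKO, and 6029 and 5874 in controls. No called change had its sign reversed under any setting tried.

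Between the genotypes no member was called. In untreated islets 0 of 34 passed the edgeR test and 0 passed with DESeq2, against 0.0758% of all genes with edgeR. The share of all genes with an unadjusted p under 0.05 was not counted, and 1 member had such a p. This was Pam, with 1758, 1690.1 and 1816 CPM in untreated islets labelled bKO and 1222, 1293 and 1242 CPM in untreated controls, a log2 difference of 0.49 (SE 0.143, adjusted p = 0.494, unadjusted p = 0.0056). The groups did not overlap, as was the case for 7 members in all (6 higher and 1 lower) and for 16.2% of genes tested (8.24% higher and 7.94% lower). Members' log2 differences were between -0.13 and 0.49. Where the fit used only the 6 untreated libraries, Pam and Ptprn passed as higher in islets labelled bKO, in a fit that called 0.641% of all genes.

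In treated islets 0 of 34 members were called with edgeR, against 0.232% of all genes (0.141% higher and 0.0909% lower). An unadjusted p under 0.05 was found for 9 members, and the share of all genes with such a p was not counted. The members' median log2 difference was -0.15 (all genes 0.01), and they lay between -0.87 and 0.23. The largest differences were those of Rab3b at -0.87 (SE 0.21, adjusted p = 0.101), Sytl4 at -0.68 (SE 0.153, adjusted p = 0.0837) and Rab3a at -0.53 (SE 0.121, adjusted p = 0.0875), whose values per library are given above. For each of the 3, all treated libraries labelled bKO lay below all treated control libraries. Such a lack of overlap was found for 6 members, all lower in islets labelled bKO (Nsf, Rab3a, Rab3b, Snap25, Sytl4 and Unc13a), and for 17.7% of all genes tested (6.94% higher and 10.8% lower, as shares of all genes tested). DESeq2, which called 3.56% of all genes, called 3 members, which were Rab3a, Rab3b and Sytl4. The same 3 passed in edgeR with no filter on low counts, where 0.546% of all genes were called, and when replicate 1 of the treated bKO-labelled group was left out, where 2.18% were called and the members' median difference was -0.26. Without replicate 2 of that group the members' median difference was -0.04 and none was called. Beta-cell markers moved the same way, with 2 of 9 called lower in treated islets labelled bKO than in treated controls and a median log2 difference of -0.68, and their part in the result was not tested.

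The test of the difference between the responses called no member. By edgeR's quasi-likelihood test 0 of 34 members and 0% of all genes passed. An unadjusted p under 0.05 was found for 6 members, a cut at which all genes were not counted. DESeq2 called 0 members, while over all genes it called 100 higher and 86 lower (0.939%), and edgeR with no filter on low counts called 1 gene, which was no member. The differences, response in islets labelled bKO minus response in controls, were between -0.78 (Rab3b, SE 0.296, adjusted p = 0.402) and 0.21. Their sign was negative for 28 of 34 members, with a median of -0.27, against 0.01 over all genes. Without replicate 2 of the treated bKO-labelled group the sign was negative for 23 of 34 and the median was -0.12. Without replicate 2 of the treated controls the sign was negative for 24 of 34 and the median was -0.15. Members share libraries, so these counts describe 12 libraries and are not 34 observations.

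To see whether the members were alone in this, 92 other exocytosis genes were listed, of which 89 were tested (Syt10, Unc13c and Cplx4 were too low). In islets labelled bKO 23 rose and 39 fell, 69.7% of those tested, against 62.4% of all genes tested. Their median log2 fold change was -0.23, against -0.06 over all genes. In controls 21 rose and 35 fell, 62.9% of those tested, against 60.6% of all genes tested. Their median was -0.15, against -0.10 over all genes. None of these other exocytosis genes was called between the genotypes or for the difference in response by the same edgeR test. Of them, 4, 22 and 13 had an unadjusted p under 0.05 in untreated islets, treated islets and the difference. All genes were not counted at that cut. With DESeq2 6 of the other exocytosis genes were called in treated islets, 0 in untreated islets and 0 for the difference, where it called 3.56%, 0.646% and 0.939% of all genes.

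The largest falls were those of Syt3, with 0.565, 0.436 and 0.827 CPM in treated and 7.77, 8.94 and 7.44 CPM in untreated islets labelled bKO, a log2 fold change of -3.73 (SE 0.204, adjusted p = 4.78e-08), and -3.32 (SE 0.193, adjusted p = 8.35e-08) in controls. Rimbp2, a RIM-binding protein of the release site, had 33.8, 20.4 and 35.3 CPM in treated and 257, 267 and 239.7 CPM in untreated islets labelled bKO. Its log2 fold change was -3.09 in islets labelled bKO and -2.37 in controls. Baiap3, a Munc13 relative of dense-core vesicles, gave -2.87 in islets labelled bKO and -2.07 in controls, the vesicle protein Sv2b -2.31 and -2.18, and Myrip, an effector of Rab27a, -2.09 and -2.24. Rab37 (24.4 CPM in treated and 97.6 CPM in untreated islets labelled bKO, on average) and the priming factor Cadps (a log2 fold change of -1.56 in controls) completed the 6 largest falls of each genotype.

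The largest rises were those of Unc13d, the Munc13-4 of blood cells, with log2 fold changes of 1.57 in islets labelled bKO (SE 0.387, adjusted p = 0.00408) and 1.46 in controls (SE 0.388, adjusted p = 0.0066). Its highest value, 11.2 CPM, was that of replicate 2 of the treated bKO-labelled group. Rala, a small GTPase that binds the exocyst, had 169.5, 125 and 150.2 CPM in treated and 55.3, 51.2 and 53.4 CPM in untreated islets labelled bKO, a log2 fold change of 1.48 (SE 0.101, adjusted p = 2.84e-07), and 1.33 in controls. Napb gave 0.94 and, in controls, 1.27, and the target SNARE Stx2 0.92 and, in controls, 1.10. Ralb (0.91) and Rab3ip (0.90) followed in islets labelled bKO. Chgb, a granin, was among the largest rises in controls (0.93). By role, 3 of the 20 other Rab and effector genes rose and 11 fell in islets labelled bKO, and 2 rose and 12 fell in controls. Of the 9 other target SNAREs 6 rose and 2 fell in islets labelled bKO, and 5 rose and 1 fell in controls. The exocyst complex, which tethers vesicles, had 5 of 11 higher and 3 lower in islets labelled bKO, and 4 higher and 3 lower in controls. Over all genes tested, 28.8% rose and 33.6% fell in islets labelled bKO, and 26.8% rose and 33.9% fell in controls.

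The promoters of members were read from RefSeq for the GRCm38.p6 build, as windows from 250 bases before to 50 after the start, and 29 windows were found for 25 of the 34 members. They were searched on both strands for sequences named for factors of cytokine signalling and of neuroendocrine genes: the interferon-gamma-activated site (GAS, TTCNNNGAA), a kB-like site (GGANTTTCC), the cyclic AMP response element (CRE, TGACGTCA) and the left part (TTCAGCACC) and the right part of the repressor element 1 (RE1). A GAS match lay in 5 windows, 17.2% of those of members, against 8.3% of all 32851 windows, and its genes (Rph3al, Scg2, Scg5, Sytl4 and Vamp8) include members that rose and members that fell. The kB-like letters lay in 2 windows (6.9% against 1.25%; Sytl4 and Unc13b), and the CRE in 3 (10.3% against 1.79%; Napa, Scg2 and Stxbp3). The left part of RE1 lay in 3 windows (10.3% against 0.371%; Ptprn2, Scg2 and Unc13a) and the right part in 2 (6.9% against 0.521%; Ptprn2 and Unc13a). No match overlapped another. The windows of members held a median of 18 CpG, against 7 in all windows, and these shares were not matched for it. Windows of 3 members are shown, with matches in capitals. Vamp8 rose and Sytl4 fell in both genotypes while each holds a GAS match. Unc13a, whose fall was called only in islets labelled bKO, holds both parts of RE1 close to its start. Ptprn2, not shown, also holds both parts close to its start and was called in neither genotype. The difference in response was called for neither Unc13a nor Ptprn2.
Vamp8 (chr6:72390618-72390917, minus strand, GAS): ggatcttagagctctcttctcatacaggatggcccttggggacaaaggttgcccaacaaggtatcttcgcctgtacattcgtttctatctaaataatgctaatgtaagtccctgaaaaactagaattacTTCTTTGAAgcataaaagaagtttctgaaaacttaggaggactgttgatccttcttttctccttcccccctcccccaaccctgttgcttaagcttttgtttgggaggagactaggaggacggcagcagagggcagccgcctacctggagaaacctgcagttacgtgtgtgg
Sytl4 (chrX:133981763-133982062, minus strand, kB-like then GAS): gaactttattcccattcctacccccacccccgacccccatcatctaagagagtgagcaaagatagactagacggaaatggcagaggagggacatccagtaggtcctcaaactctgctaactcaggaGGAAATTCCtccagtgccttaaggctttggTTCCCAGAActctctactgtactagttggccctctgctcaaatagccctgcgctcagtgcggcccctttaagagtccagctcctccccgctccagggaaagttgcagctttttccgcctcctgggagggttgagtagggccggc
Unc13a (chr8:71671708-71672007, minus strand, RE1 right part then left part): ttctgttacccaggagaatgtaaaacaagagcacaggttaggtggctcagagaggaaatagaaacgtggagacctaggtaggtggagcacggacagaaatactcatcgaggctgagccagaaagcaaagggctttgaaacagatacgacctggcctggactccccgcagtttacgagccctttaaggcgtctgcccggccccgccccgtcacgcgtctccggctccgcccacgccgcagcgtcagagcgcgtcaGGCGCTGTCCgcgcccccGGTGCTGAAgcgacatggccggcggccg
These are matches of letters only, and the libraries hold no measure of binding.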

How the data were processed

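RNA of islets was measured in 12 libraries. The authors deposited raw whole-number counts for 55536 genes. The submitters' processing notes name STAR 2.5.2a and featureCounts 1.6.2 with GRCm38, besides cutadapt 1.16, FastQC 0.11.7 and DESeq2 1.30.0. Annotation release and strand of counting were not stated, which leaves reads of overlapping genes uncertain. Here, filterByExpr kept 19800 genes. After TMM scaling, edgeR 4.0.16 (R 4.3.3) was run as a quasi-likelihood test, with 1 coefficient per group and Benjamini-Hochberg adjustment over all genes at 0.05, and was checked on simulated data. CPM are relative to the TMM-scaled library size. Exon lengths and positions are from GENCODE M21. Groups and replicate numbers follow the titles. The members, lists and marker genes were chosen with earlier results of these data known. Values in every library are given for members with the largest changes and their family partners. Of other exocytosis genes, up to 6 per direction are named among those called with at least 5 CPM. A gene that this rule names is not reported here. The settings tried besides were other scalings (size factors of DESeq2, library totals alone), no filter, DESeq2 1.42.0, limma-voom (limma 3.58.1), a fit of the compared groups only, the filtered table of the authors, a block for the replicate number, and single libraries left out. A chi-square test of counts found no 2 libraries of a group alike within sampling noise.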

Additional observations from a re-analysis of the deposited data

How the results depend on the processing

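Of the 22 members called in islets labelled bKO, 17 were called under every alternative, and of the 22 called in controls 19 were. Pam, Rph3al, Scg2, Scg3 and Snap23 lost their call under at least one alternative in islets labelled bKO, and Napa, Snap23 and Stxbp2 did in controls; the cause was not tested. Leaving out single libraries gave 20 to 24 called members in islets labelled bKO and 20 to 21 in controls. Of the other exocytosis genes, 51 to 64 and 53 to 56 were called. The share of all genes called in these fits was 54.6% to 62.3% in islets labelled bKO and 53.5% to 55.5% in controls. Between treated genotypes, DESeq2 called 3 members and 6 other exocytosis genes, no filter gave 3 and 3, and leaving out single libraries gave 0 to 3 and 0 to 4. Between untreated genotypes, using only the compared groups gave 2 members and 1 other gene. Over all genes, DESeq2 called 296 higher and 409 lower between treated genotypes, against 28 and 18, and 92 and 36 between untreated ones, against 15 and 0. The fit of only the compared groups could not give the difference in response.

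Whether same-numbered libraries share a mouse could not be told from the counts. Over 12 same-numbered pairs of libraries from different groups, the deviations from the group means had correlations of -0.49 to 0.10. Some of these pairs cross the genotypes and cannot share a mouse, among them the pair at -0.49. Within a genotype the correlations were -0.10 to 0.10. With 3 libraries per group, such deviations neither show nor exclude a pairing. With a replicate block, 21 members were called in islets labelled bKO (6 higher and 15 lower), against 59.4% of all genes. Rph3al had an adjusted p of 0.0581 there. In controls 21 members were called (9 higher and 12 lower), against 57.8% of all genes, and Napa had an adjusted p of 0.0656. No member was called in the other 3 comparisons. Depth limits Cplx1 the most, with 82 counts in its lowest library.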
